A study of Mus musculus with 2 samples.

Results

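Translation initiation factors and the kinases that act on eIF2 were followed through 57 genes, those named Eif and a digit on the arrays apart from 1 kinase gene that the selection left out. They were read by 83 of the 55681 probes, and the whole array held 36413 genes or intervals. Of the 57 genes, 55 were tested through 79 probes, because Eif4e1b and Eif5b had no probe that cleared the background of a channel on both arrays. Through accessions, 82 of the 83 probes matched a current symbol in RefSeq. The genes that the array calls Eif2c1 to Eif2c4 are the Argonaute genes Ago1 to Ago4, and Eif3j is now Eif3j1.

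The cells were lineage-negative erythroid progenitors of C57BL/6 fetal liver at stage E14.5. They had been transduced with either the vector or ESlncRNA, a long noncoding RNA of erythroid cells also known as lincRNA-EPS, and sorted for GFP, so the vector cells carried the same marker. Both arrays set ESlncRNA RNA in Cy5 against vector RNA in Cy3, and the series asked how over-expression of the RNA changed gene expression. There were 2 arrays and no dye swap, so a dye effect of a probe would enter both ratios alike. Nothing in the labels says that the arrays came from separate cultures or animals, so the p-values cover the spread from one array to the other, and that spread may be technical alone.

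Initiation is the step at which the small ribosomal subunit finds the start codon of an mRNA. eIF4E binds the cap, eIF4A unwinds, eIF4G and eIF3 join mRNA and ribosome, and eIF2 brings the initiator tRNA as a complex with GTP that eIF2B renews. Stress kinases phosphorylate the alpha subunit of eIF2, which blocks eIF2B and lowers general initiation while mRNAs such as that of Atf4 are still translated. In red cell precursors the heme-regulated kinase HRI, encoded by Eif2ak1, is known for matching globin synthesis to heme.

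The sequences shown first belong to the 3 genes with the highest ratios, given as the 250 bases before the RefSeq start of the gene (GRCm38.p6), 5′ to 3′ on the strand of the gene, with matches to the 4 motifs searched in capitals. That of Eif2ak1 lies at chr5:143817542-143817791 (forward strand), that of Eif3d at chr15:77970825-77971074 (reverse strand) and that of Eif5a2 at chr3:28781027-28781276 (forward strand).
Eif2ak1: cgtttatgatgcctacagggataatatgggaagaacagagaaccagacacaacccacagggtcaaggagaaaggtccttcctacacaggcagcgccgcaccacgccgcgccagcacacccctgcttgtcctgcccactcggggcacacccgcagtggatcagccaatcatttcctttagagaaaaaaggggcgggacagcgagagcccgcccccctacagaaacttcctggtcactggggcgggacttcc
Eif3d: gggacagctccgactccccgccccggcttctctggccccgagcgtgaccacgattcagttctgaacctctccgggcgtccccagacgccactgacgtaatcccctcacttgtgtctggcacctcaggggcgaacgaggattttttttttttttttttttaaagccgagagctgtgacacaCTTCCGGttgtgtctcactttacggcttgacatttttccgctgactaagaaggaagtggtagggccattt
Eif5a2: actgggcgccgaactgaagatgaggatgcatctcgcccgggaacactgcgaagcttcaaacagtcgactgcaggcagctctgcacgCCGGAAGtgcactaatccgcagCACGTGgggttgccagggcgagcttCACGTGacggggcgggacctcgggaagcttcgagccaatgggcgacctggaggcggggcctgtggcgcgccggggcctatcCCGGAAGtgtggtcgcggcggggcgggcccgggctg

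The motifs, searched on both strands, were the E-box CACGTG, the GATA motif AGATAA, the ETS motif CCGGAAG and the ATF4 composite TGATGNAA. In Eif5a2 the capitals mark 2 E-boxes and 2 ETS motifs. In Eif3d they mark 1 ETS motif, read on the other strand. Eif2ak1 held none of these letters in this window. RefSeq promoters were at hand for 44 of the 57 genes, 58 in all. The E-box occurred in 19.0% of the 58, in 9 genes, and in 6.02% of all 32851 promoters in the table. The ETS motif occurred in 22.4% of them, in 13 genes, against 6.91% of all. The GATA motif was found in 1.72% against 9.99%, and the ATF4 composite in 1.72% against 3.45%. The members' promoters were richer in G and C, with a median of 63.4% against 52.4%, so the shares are descriptions of windows that differ in base composition.

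The over-expressed RNA and the cell type were checked before the members. Of 9 tested probes of the lincRNA interval between Eps15 and Ttc39a on chromosome 4, 8 were higher with ESlncRNA, and the lower bounds of their folds ran from 1.53 to 4.62. These 8 probes were not above background in the vector channels. Each passed the filter through the ESlncRNA channel alone, which favoured a higher ratio in advance. That interval was matched by its neighbours, since no probe carried the accession of the series title. Of 12 erythroid markers, 9 were higher and 3 did not pass (median log2 ratio 0.64), where 26.3% of all genes were higher. The 3 were Hbb-b1 (0.04 and 0.04), Alas2 (-0.02 and 0.77) and Slc4a1 (-0.45 and 1.48 on replicates 1 and 2). The arrays disagreed widely for Alas2 and Slc4a1. All 9 granulocyte, 8 macrophage and 6 megakaryocyte markers tested were lower, with medians of -4.59, -0.93 and -1.78, where 36.8% of all genes were lower. The summed granulocyte signal was 741380 and 755174 in the vector channels and 59045 and 75520 in the ESlncRNA channels of replicates 1 and 2. Such sums are before the dyes were balanced, and the ESlncRNA channel was the brighter one. Sums of macrophage, megakaryocyte and hepatocyte markers fell too. Those of erythroid markers rose, as did mast cell and basophil sums (16179 and 14771 to 25404 and 27299) and endothelial sums (1382 and 1542 to 2154 and 2725). Of the 4 mast cell and basophil markers 3 were lower and Kit was higher, and 4 of 5 endothelial and 4 of 5 hepatocyte markers were lower. Emr1, Vcam1, Fcgr1, Cd68 and Mrc1 (macrophage), Ms4a2 (mast cell), Cdh5, Emcn and Tek (endothelial) and Ttr (hepatocyte) were not above background with ESlncRNA. They passed the filter through the vector channel alone, which favoured a lower ratio in advance. Their values are bounds, from at least 1.13-fold (Ttr) to at least 4.49-fold lower (Emr1), and the macrophage median includes such ratios. In these bulk samples fewer cells of a type and less RNA per cell cannot be told apart. The part of these marker shifts in the differences of the initiation factors was not tested.

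After loess the initiation factor genes as a group lay near 0, but with median centring of the arrays their median was 0.72, 0.38 above that of all genes, and 47 of 55 lay above that of all genes. Loess sets each range of brightness near 0, so a shift shared by bright genes cannot be read from it. Values are log2 ratios of ESlncRNA over vector after loess normalization, as means of 2 arrays ± SD, and a gene with several probes is represented by its brightest. The median over the 55 genes was -0.01, with the middle 50% of genes between -0.16 and 0.16. Over all 19891 genes tested it was -0.03, with the middle 50% between -0.30 and 0.16. At an adjusted p under 0.05 (limma, Benjamini-Hochberg over all probes tested), 15 members were higher, 16 were lower and 24 did not pass. That is 56.4% of the members called, 27.3% higher and 29.1% lower. Of all genes 63.1% were called, 26.3% higher and 36.8% lower, and nothing particular to the members is read from these shares.

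Most differences were small, and the precision of the arrays let small ones pass. Of the 31 called members, 26 differed by less than 1.5-fold. The members past 1.5-fold in the mean were 5 of 55, or 9.09%, where 3669 of all genes, or 18.4%, were past it. When each array had to pass 1.5-fold on its own, 1 member was higher (Eif2ak1) and 2 were lower (Eif2c4 and Eif4e3). The same rule took 3.24% of all genes as higher and 13.5% as lower. For all 24 members that did not pass, the 95% interval of the mean stayed within 1.5-fold, with outer bounds of -0.24 and 0.30.

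**Figure D1:**
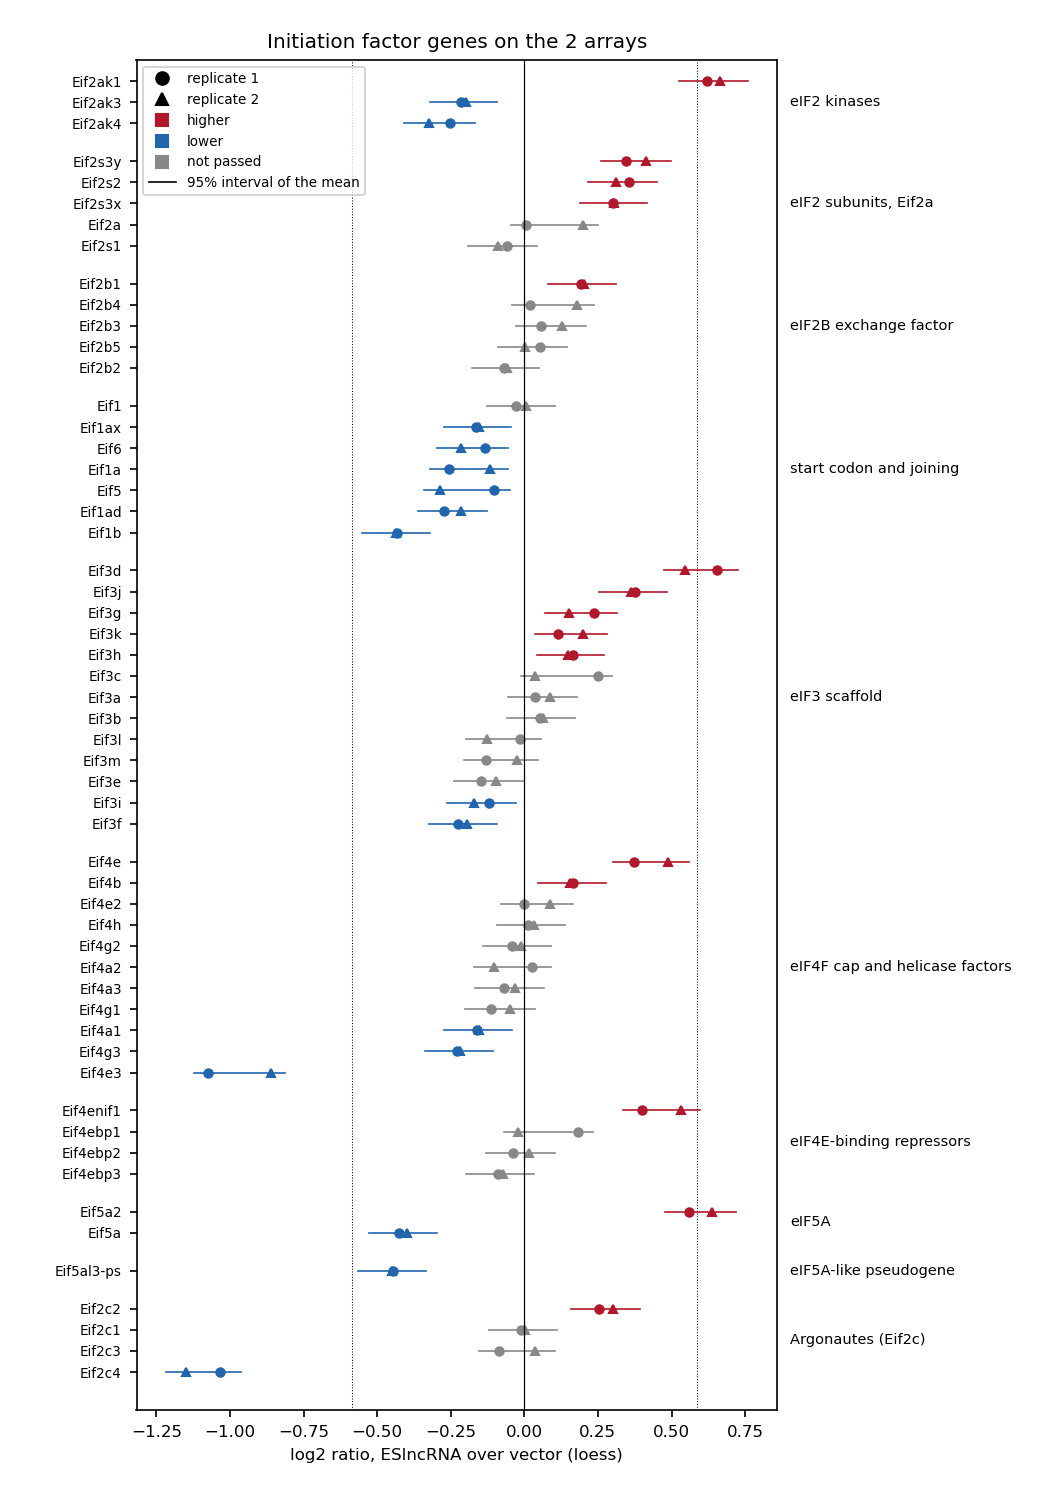
Log2 ratio of ESlncRNA over vector for the 55 tested genes, grouped by role, with replicate 1 as a circle, replicate 2 as a triangle and a line for the 95% interval of the mean. Dotted lines mark 1.5-fold, and only Eif2ak1, Eif4e3 and Eif2c4 have both arrays beyond them.

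The arrays repeated each other closely for these genes. The SD between arrays had a median of 0.0368 and reached 0.152 at most, for Eif3c. Both arrays gave the same sign for 48 of the 55 genes. Across the 55 genes the ratios of the 2 arrays correlated at r = 0.961 (Pearson) and rho = 0.933 (Spearman), a description across genes that share their arrays and dyes. Most members were bright: their median log2 intensity was 13.6 against 9.21 for all genes, and 39 of them were among the 4973 brightest genes. Among those 4973 genes, 1452 were higher and 1648 lower, with a median of -0.01.

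**Figure D2:**
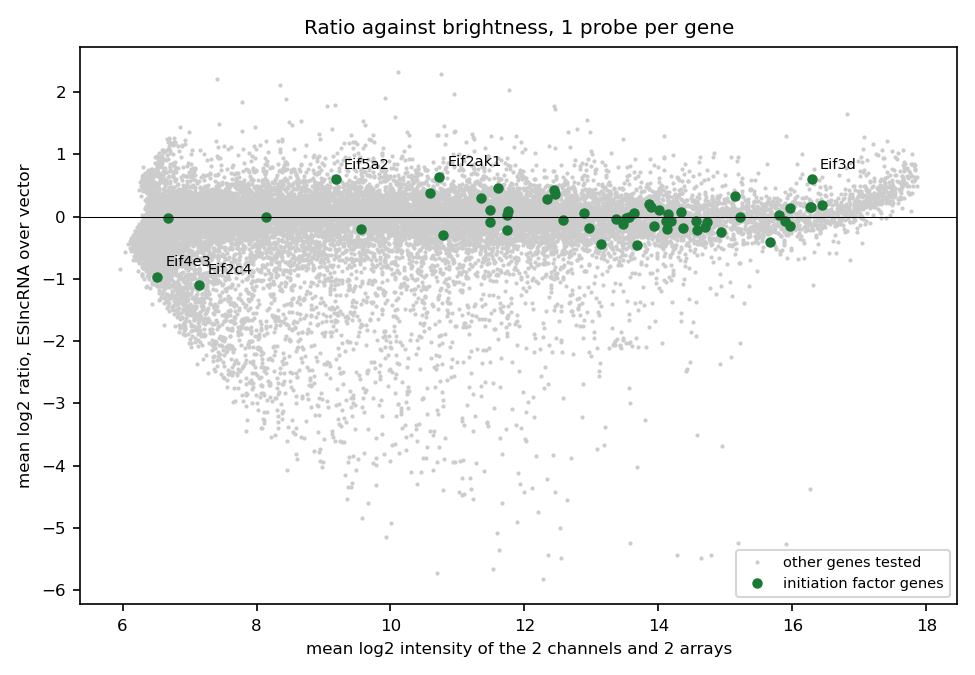
Mean log2 ratio of ESlncRNA over vector against mean log2 intensity for the 19891 tested genes, 1 probe each, with the 55 initiation factor genes in green. The members lie mostly to the right, at a median intensity of 13.6, and close to 0, while Eif4e3 and Eif2c4 are dim and low.

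The balance of higher and lower members rested on the scaling of the arrays. With each array centred on its median in place of loess, the median of all genes moved to 0.34 and that of the members to 0.72, and 52 members were higher and 2 lower. With Agilent's processed signals these medians were 0.11 and 0.08, with 16 higher and 7 lower. Of all calls, 41.7% were higher genes under loess, 77.5% under median centring and 59.2% under Agilent's own processing. Relative to the median of all genes, 26 of the 55 members lay on 1 side under the 3 scalings, 20 above it and 6 below it. The 6 were Eif2ak3, Eif2ak4, Eif1b, Eif5al3-ps, Eif4e3 and Eif2c4.

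**Figure D3:**
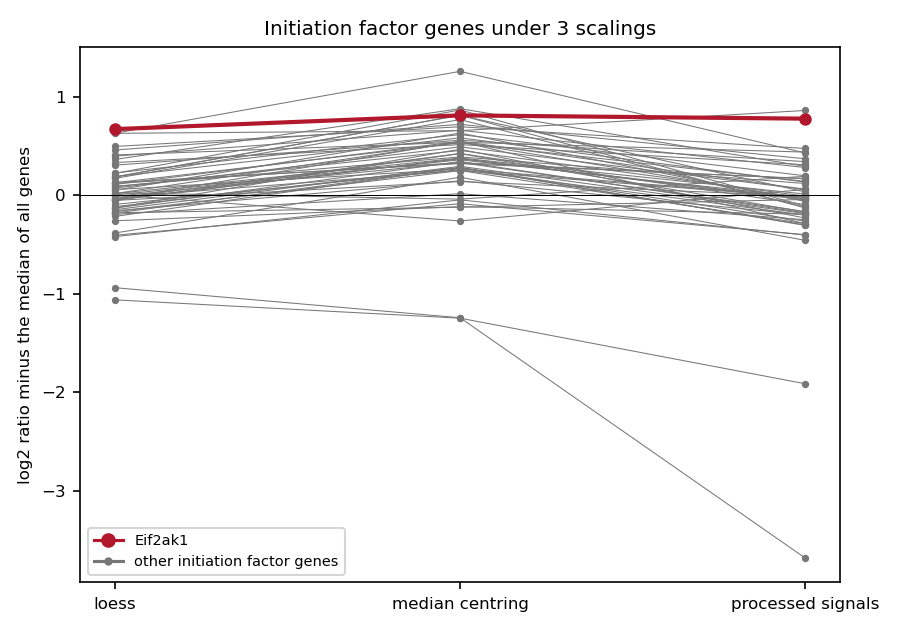
Log2 ratio of each of the 55 genes minus the median of all genes, under loess, median centring and Agilent's processed signals, with Eif2ak1 in red. Eif2ak1 stays between 0.67 and 0.81 above that median, while many other members rise with median centring and return with the processed signals.

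Eif2ak1, the gene of the heme-regulated kinase, was higher with ESlncRNA. Its probe (NM_013557, chr5:144662840-144662899 on mm9, forward strand) had background-subtracted signals of 1016 and 885 in the vector channels and 2725 and 2909 in the ESlncRNA channels of replicates 1 and 2, before the dyes were balanced. The log2 ratios were 0.62 and 0.66, and both arrays lay on the higher side. The mean was 0.64 ± 0.031 (SD, n = 2 arrays), a 1.56-fold difference with a 95% interval of 0.53 to 0.76 and a limma adjusted p of 5.91e-05. It ranked first of the 55 members by loess, sixth with median centring (1.15) and second with the processed signals (0.89). Relative to all genes it stood at 0.67, 0.81 and 0.78 in that order. The erythroid markers, with a median of 0.64, moved as far on the same arrays.

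The other eIF2 kinases tested lay on the opposite side of the median of all genes. Eif2ak3 encodes PERK, the kinase of endoplasmic reticulum stress, and gave -0.22 and -0.20 on the 2 arrays (adjusted p = 0.00956). Eif2ak4 encodes GCN2, which senses uncharged tRNA, and gave -0.25 and -0.32 (adjusted p = 0.00269). Both were lower with loess, but with median centring they stood at 0.22 and 0.22, above 0 and below the 0.34 of all genes. Relative to all genes Eif2ak3 was at -0.18 by loess, -0.12 by median centring and -0.04 by the processed signals, and Eif2ak4 at -0.26, -0.12 and -0.19. The call of Eif2ak3 was lost without the replicate block (adjusted p = 0.137), and with the processed signals its ratio was 0.07 and did not pass (adjusted p = 0.202). That of Eif2ak4 was lost with the processed signals (-0.08, adjusted p = 0.236). Each of these kinases was read by 1 probe.

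Among the subunits of eIF2 and Eif2a, which encodes a separate protein able to carry initiator tRNA, 3 of 5 genes were higher and none was lower by the brightest probe of each. The share called, 60%, was near the 63.1% of all genes, of which 26.3% were higher and 36.8% lower. Eif2s3y and Eif2s3x, the Y- and X-linked genes of the gamma subunit, gave 0.35 and 0.41 for the first and 0.30 and 0.30 for the second. Eif2s2, the beta subunit, gave 0.36 and 0.31. Their adjusted p-values were 7.67e-04, 0.00181 and 0.00124. These genes stayed above the median of all genes under the 3 scalings, by 0.29 or more. The other tested probes of Eif2s2 (0.06 and 0.19, adjusted p = 0.0818) and Eif2s3x (0.12 and 0.08, adjusted p = 0.110) did not pass. Eif2s1, which encodes the alpha subunit that the kinases phosphorylate, did not pass by its brightest probe, at -0.06 and -0.09 (adjusted p = 0.221), while its other tested probe was lower at -0.29 and -0.19 (adjusted p = 0.00715). With its probes averaged Eif2s1 was lower, at -0.16 (adjusted p = 0.0209). Eif2a did not pass either, at 0.00 and 0.20, and its arrays differed more than those of most members.

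With loess the exchange factor eIF2B had 1 higher gene and a median of 0.09, but with median centring all 5 were higher, with a median of 0.76 that lay 0.43 above all genes. The higher share of all genes was 26.3% with loess and 62.9% with median centring. Of its 5 subunit genes, Eif2b1, the alpha subunit, was higher at 0.19 and 0.20 (adjusted p = 0.0115), and it lay above the median of all genes under the 3 scalings. That call was lost without the replicate block (adjusted p = 0.198) and with a normexp offset of 0 (adjusted p = 0.0523). The other subunits, Eif2b2 to Eif2b5, did not pass with loess, with means from -0.06 to 0.10. The highest upper bound among their 95% intervals was 0.24, for Eif2b4.

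The factors of start codon choice and subunit joining were lower with loess, 6 of 7 tested, with a median of -0.19, but 7 of 7 were higher with median centring. Relative to all genes that median was -0.16 by loess, 0.28 by median centring and -0.20 by the processed signals. The lower share by loess was 85.7%, against 36.8% of all genes, and with median centring 62.9% of all genes were higher. Eif1b, a close relative of the start codon factor Eif1, gave -0.43 and -0.44 (adjusted p = 3.46e-04), and of the 7 it was the gene below the median of all genes under the 3 scalings. Eif1 itself, which guards against wrong start codons, did not pass at -0.03 and 0.01. Eif1a and Eif1ax, genes of eIF1A, gave means of -0.19 ± 0.099 and -0.16 ± 0.0061. Eif5, which makes eIF2 hydrolyse its GTP, gave -0.10 and -0.29, and Eif6, which keeps the large ribosomal subunit apart from the small one, -0.14 and -0.22. Eif1ad, which holds an eIF1A domain, gave -0.27 and -0.22. These are the brightest probes, and the other probes of Eif1ad and Eif5 were called higher, at means of 0.27 and 0.14 (adjusted p = 0.00336 and 0.0459). Without the replicate block the calls of Eif1a, Eif1ax, Eif1ad, Eif5 and Eif6 were lost. Paralogs such as Eif1 and Eif1b, or Eif1a and Eif1ax, may share signal on their probes, which was not tested.

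The 13 genes of eIF3, the scaffold between mRNA and the small subunit, were split with loess, where 5 were higher, 2 lower and 6 did not pass (median 0.06). With median centring 13 of 13 were higher, and with the processed signals 3 were higher and 1 lower. Over all genes 26.3% were higher and 36.8% lower with loess, and 62.9% were higher with median centring. With the processed signals 34.3% of all genes were higher and 23.7% lower. Eif3d, a subunit that can bind the cap of some mRNAs in human cells, was the furthest at 0.65 and 0.55, a mean of 0.60 ± 0.076 and 1.52-fold (adjusted p = 1.17e-04). It was also among the brightest probes, with 43786 and 37155 in the vector channels and 166026 and 151375 in the ESlncRNA channels. Its distance from all genes depended on the scaling, at 0.63 by loess, 1.26 by median centring and 0.43 by the processed signals.

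Eif3j, a loosely bound subunit, gave 0.38 and 0.36 (adjusted p = 7.47e-04). A second probe of Eif3j was higher at 0.36 and 0.25, and its dimmest probe did not pass, at -0.01 and -0.03 (adjusted p = 0.754). Eif3g, Eif3k and Eif3h were higher by less, with means of 0.19, 0.16 and 0.16, and with the processed signals Eif3g and Eif3h lay below the median of all genes. The other 2 tested probes of Eif3k did not pass, at 0.06 and -0.10. Eif3c did not pass by its brightest probe, at 0.25 and 0.04, but its other probe was higher at 0.30 and 0.40 (adjusted p = 0.00142). Eif3f and Eif3i were lower with loess at -0.21 and -0.14 and above 0 with median centring, at 0.62 and 0.62. Eif3a, the largest scaffold subunit, and Eif3b did not pass at means of 0.06 and 0.06. Relative to all genes the eIF3 median was 0.09 by loess, 0.55 by median centring and -0.11 by the processed signals.

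Among the 11 tested factors of the cap complex and its helicases, 2 were higher, 3 lower and 6 did not pass, with a median of -0.04 that became 0.76 with median centring. The shares by loess were 18.2% higher and 27.3% lower, against 26.3% and 36.8% of all genes. Eif4e, the cap-binding protein, gave 0.37 and 0.49 (adjusted p = 5.92e-04), and its second tested probe gave 0.24 and 0.32. Eif4b, which stimulates the helicase, gave 0.17 and 0.15. Eif4a1, the main initiation helicase, was lower with loess at -0.16 and -0.15, and Eif4g3, a scaffold related to Eif4g1, at -0.23 and -0.22. Both were above 0 with median centring, at 0.81 and 0.36. The other, dim probe of Eif4g3 did not pass, at -0.09 and 0.21 (adjusted p = 0.536). Eif4g1, Eif4g2, Eif4a2, Eif4a3 (the helicase of the exon junction complex), Eif4h and Eif4e2 did not pass by their brightest probes, with means from -0.08 to 0.04. A dimmer probe of Eif4e2 was higher at 0.36 and 0.39 (adjusted p = 7.14e-04).

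Eif4e3, an atypical cap-binding relative of Eif4e, was lower but dim. Its signals were 60.0 and 54.7 in the vector channels and 3.65 and 11.6 in the ESlncRNA channels, where it was not well above background on either array. It passed the filter through its vector channel alone. The measured ratios of -1.07 and -0.86 (adjusted p = 3.21e-05) are against a channel not above background, so the value is given as a bound of at least 1.70-fold lower. For the bound the vector level was divided by the lowest level that still cleared the background in the ESlncRNA channel, or by the dim level itself where that was greater, and it is open to dye bias.

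Of the 4 proteins that hold eIF4E, 1 was higher and 3 did not pass with loess, but all 4 were higher with median centring, with a median of 0.80 that lay 0.46 above all genes. Higher genes made up 26.3% of all genes with loess and 62.9% with median centring. Eif4enif1, whose product 4E-T carries eIF4E to the nucleus and to processing bodies, was higher at 0.40 and 0.53 (adjusted p = 4.59e-04), and above all genes by 0.48 or more under the 3 scalings. The repressors Eif4ebp1, Eif4ebp2 and Eif4ebp3, which mTORC1 switches off by phosphorylation, did not pass with loess, with means of 0.08, -0.01 and -0.08. The 95% interval of Eif4ebp1 ran from -0.07 to 0.23.

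The 2 genes of eIF5A, the factor with hypusine that helps ribosomes through difficult peptide bonds, went opposite ways. Eif5a gave -0.42 and -0.40 (adjusted p = 4.55e-04) and Eif5a2 gave 0.56 and 0.64 (mean 0.60 ± 0.056, 1.52-fold, adjusted p = 9.71e-05), with no overlap between the arrays of the 2 genes. Eif5a2 was above all genes by 0.63, 0.66 and 0.86 under loess, median centring and the processed signals. Eif5a was below them by loess (-0.38) and the processed signals (-0.46), and above them with median centring (0.18). Eif5al3-ps, named as a pseudogene related to Eif5a, gave -0.45 and -0.45 (adjusted p = 2.99e-04). Its probe may share signal with Eif5a, which was not tested, and the values of both are uncertain to that degree.

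The 4 Argonaute genes carry an initiation factor name from an older nomenclature and encode the proteins that hold small RNAs. Eif2c2, or Ago2, was higher at 0.25 and 0.30 by its brighter probe (adjusted p = 0.00296). The other Eif2c2 probe gave -0.04 and -0.07 and did not pass, and with the probes averaged the call was lost (0.11, adjusted p = 0.0634). Eif2c1 and Eif2c3 did not pass at means of 0.00 and -0.02. Eif2c4, or Ago4, had signals of 119 and 116 in the vector channels and 51.1 and 46.2 in the ESlncRNA channels at its brighter probe (chr4:126169537-126169596). The ratios of -1.03 and -1.15 gave a mean of -1.09 ± 0.081, 2.13-fold lower (adjusted p = 7.18e-06). Its other probe, at chr4:126167162-126167221, gave 0.02 and -0.03 and did not pass. Without the Argonautes 14 of 51 members were higher and 15 lower, with the same median of -0.01.

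For 20 of the genes more than 1 probe was tested, and the probes of a gene did not always meet. The gap between the highest and lowest probe was widest for Eif2c4, at 1.09. In 4 genes, Eif1ad, Eif4b, Eif5 and Eif3h, probes were called in opposite directions. Eif1ad was at -0.24 by the brighter probe, at base 1145 of its transcript, and at 0.27 by the probe at base 2312. Eif5 was at -0.19 by its brighter probe and at 0.14 by the other, and Eif3h at 0.16 and -0.14. For these 4 genes the direction given above is that of the brightest probe.

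Eif4b had 3 probes, at 0.16, 0.25 and -0.14. The lowest was the one whose ends lie 507 bases apart on the genome (chr15:101916459-101916965 on mm9, forward strand), so its 60 bases cross a splice junction. A probe of Eif2s3x does so too (chrX:91436226-91441634 on mm9, reverse strand, 5409 bases), and it was the brighter probe of that gene, at 0.30 against 0.10. Both are shown as examples of probes that read spliced RNA, as printed on the array.
Eif4b: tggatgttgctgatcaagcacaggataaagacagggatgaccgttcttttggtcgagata
Eif2s3x: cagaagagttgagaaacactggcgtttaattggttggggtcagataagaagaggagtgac

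**Figure D4:**
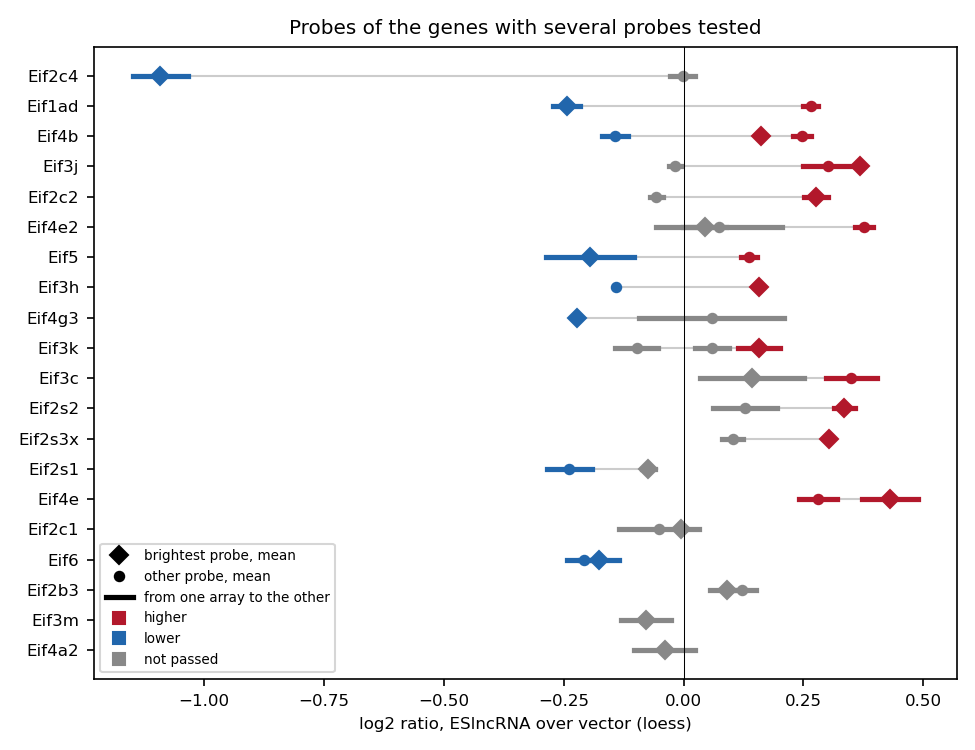
Mean log2 ratio of ESlncRNA over vector for each tested probe of the 20 genes with several, with bars from one array to the other and the brightest probe as a diamond. Eif2c4 has the widest gap, 1.09, and Eif1ad, Eif4b, Eif5 and Eif3h have called probes on both sides of 0.

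The genes around eIF2 phosphorylation and its effector ATF4 spread more widely than the initiation factors. Of 32 tested, 12 were higher, 12 lower and 8 did not pass with loess, with a median of 0.04. The shares were 37.5% higher and 37.5% lower, against 26.3% and 36.8% of all genes, so the lower share was near that of all genes. The quartiles of the list were -0.32 and 0.32. They were -0.16 and 0.16 for the initiation factors and -0.30 and 0.16 for all genes. With median centring 24 of the 32 were higher and 4 lower, where 62.9% of all genes were higher. Atf4, the transcription factor whose mRNA is translated when eIF2 is phosphorylated, gave 0.63 and 0.61 (adjusted p = 6.54e-05). Trib3, a pseudokinase gene that ATF4 is known to induce, gave 1.81 and 2.01 (mean 1.91, adjusted p = 1.12e-06). Asns, asparagine synthetase, gave 1.30 and 1.30. These 3 genes had positive ratios by the other 2 scalings too, with Atf4 at 1.60 by median centring and 0.59 by the processed signals.

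Other members of that list went down. Stc2, a secreted glycoprotein gene, gave -1.39 and -1.54 (adjusted p = 2.33e-06), and Vldlr, a lipoprotein receptor, was at least 2.08-fold lower, since its ESlncRNA channel was not well above background. Ddit3, which encodes CHOP, was higher at 0.19 and 0.43 (adjusted p = 0.00736). Ppp1r15a (GADD34) and Ppp1r15b (CReP), which direct the phosphatase that reverses eIF2 phosphorylation, were higher at means of 0.21 and 0.34. The catalytic subunits of that phosphatase are named here after their values were seen. With loess Ppp1ca and Ppp1cb were lower at means of -0.19 and -0.18 (adjusted p = 0.0144 and 0.0279) and Ppp1cc did not pass. With median centring Ppp1ca and Ppp1cb were above 0, at 0.81 and 0.52, and with the processed signals at -0.23 and -0.03. Protein phosphorylation and translation were not measured on these arrays.

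**Figure D5:**
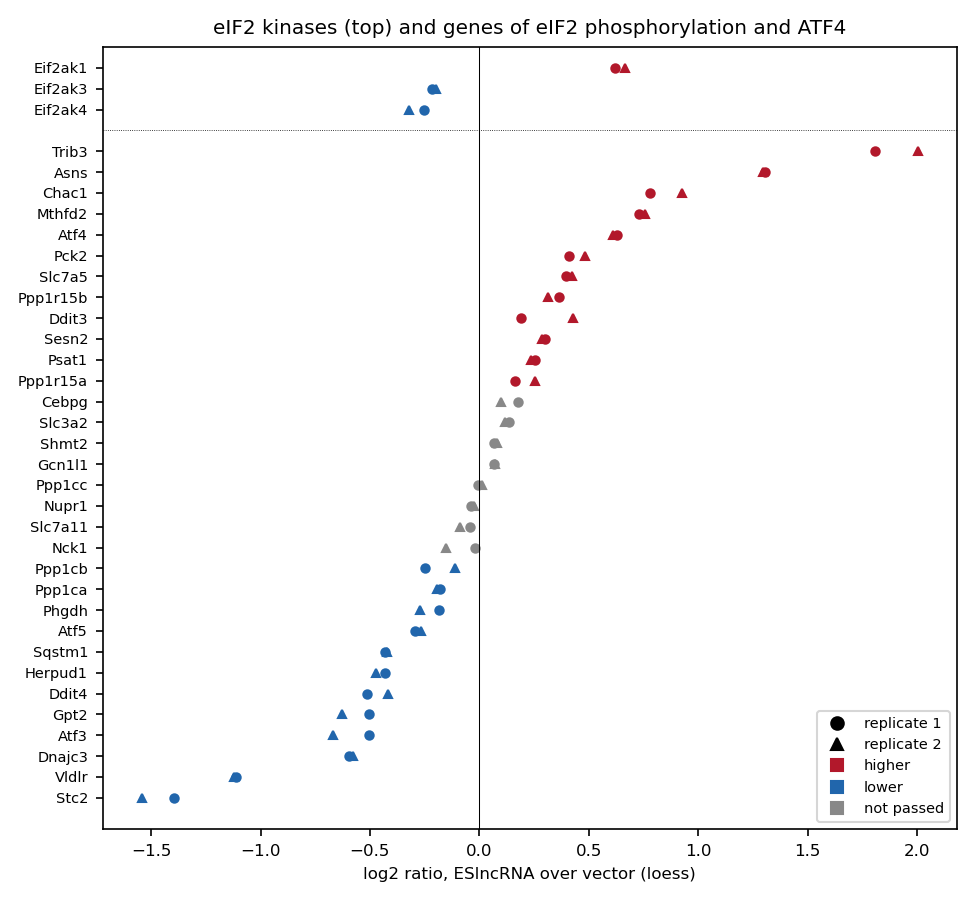
Log2 ratio of ESlncRNA over vector on each array for the 3 eIF2 kinase genes and the 32 tested genes of eIF2 phosphorylation and ATF4, ordered by mean, with circles for replicate 1 and triangles for replicate 2. The list runs from Trib3 at 1.91 to Stc2 at -1.47, with 12 genes higher and 12 lower.

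Regulators of mTORC1 and eIF4F were lower more often than higher with loess, with 9 lower, 4 higher and 13 not passing of 26, but 22 were higher and 1 lower with median centring. The lower share, 34.6%, was near the 36.8% of all genes, and the higher share was 15.4% against 26.3%. Under median centring 62.9% of all genes were higher. Cyfip1, whose product binds eIF4E together with FMRP, gave -1.02 and -0.82 (adjusted p = 3.43e-05). Pabpc1, the poly(A)-binding protein that joins eIF4G, gave -0.59 and -0.58 with loess but was at 0.45 with median centring. Rps6, the ribosomal protein that S6 kinase phosphorylates, gave 0.49 and 0.36, with 0.07 by the processed signals. Mknk1, a kinase of eIF4E, gave -0.28 and -0.36. Pdcd4, an inhibitor of eIF4A, and Mtor were lower with loess at means of -0.24 and -0.16 and above 0 with median centring, at 0.37 and 0.22.

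Of 18 elongation and termination factors tested, 6 were higher, 2 lower and 10 did not pass, with a median of 0.07. The shares were 33.3% higher and 11.1% lower, against 26.3% and 36.8% of all genes. Gspt2, a release factor eRF3, gave -0.67 and -0.66 (adjusted p = 4.77e-05), and Eefsec, the elongation factor for selenocysteine, gave -0.39 and -0.36. Eef1e1, a protein of the multi-synthetase complex, and Gfm2, a mitochondrial ribosome recycling factor, were higher at means of 0.46 and 0.44. The main elongation factors Eef1a1 and Eef2 did not pass, at means of 0.07 and 0.11. With median centring 17 of the 18 were higher and 1 lower, where 62.9% of all genes were higher.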

How the data were processed

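Total RNA was amplified and labelled with an oligo-dT kit, per the labels' protocols, which give 100 ng of input for replicate 2. Per the file headers, Feature Extraction 10.1.1.1 measured the spots. From the authors' deposited intensities, each channel's mean signal and local median background were taken. Feature Extraction's processed intensities, which per the file headers have background and dye effects removed, were tried as well. Direction was checked on the deposited log10 ratios (Cy5 over Cy3), with r = 0.986 and 0.992 to the processed signals. The authors' deposited log2 values, made with limma per the submitters' processing notes, had medians of -0.02 and -0.01. A correlation of 0.99996 with log2 ratios made here without background subtraction fixed what they hold.

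Background was corrected by normexp (offset 50), arrays were normalized by loess with control and outlier spots at weight 0, and spots of a probe were averaged (R 4.3.3, limma 3.58.1). A probe was kept when, on each array, 1 channel or both were well above background (26790 of 55681 probes), and 0 spots were saturated. Medians of spot signal were 35.9 and 39.5 (vector) and 67.8 and 76.3 (ESlncRNA), and 44.4% to 52.1% of spots were well above background. The test was limma's moderated fit of an intercept (residual degrees of freedom 1, prior 5.27), two-sided, with Benjamini-Hochberg over all probes kept. Each array's ratio pairs its channels. The number of arrays limits the precision. Loess and the fit were run on simulated log2 ratios in which few probes changed. That run left out background correction and the filter, so it does not bear on how the results depend on scaling. Both arrays share a slide and a scan, so neither could be tested as a batch.

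Members and gene lists were chosen with earlier results of these data known. Any member could be named. Of each other list the 4 genes with the smallest p were named, with Atf4, Ddit3, Ppp1r15a, Ppp1r15b, Mtor, Pdcd4, Eef1a1, Eef2 and Pabpc1. Probe coordinates follow the array headers (mm9), and promoters come from RefSeq on GRCm38.p6.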

Additional observations from a re-analysis of the deposited data

How the results depend on the processing

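Eif2ak1 was higher under every alternative run, at values from 0.62 to 1.15. Its limma adjusted p stayed under the threshold in each of them that had a test, up to 0.0108 with the deposited log2 values. Median centring reversed 27 members: Eif1 (0.88), Eif1a (0.49), Eif1ad (0.62), Eif1ax (0.68), Eif1b (0.25), Eif2ak3 (0.22), Eif2ak4 (0.22), Eif2b2 (0.76), Eif2c1 (0.30), Eif2s1 (0.71), Eif3e (0.60), Eif3f (0.62), Eif3i (0.62), Eif3l (0.89), Eif3m (0.71), Eif4a1 (0.81), Eif4a2 (0.67), Eif4a3 (0.59), Eif4ebp2 (0.72), Eif4ebp3 (0.48), Eif4g1 (0.76), Eif4g2 (0.70), Eif4g3 (0.36), Eif5 (0.59), Eif5a (0.52), Eif5al3-ps (0.29) and Eif6 (0.63). The processed signals reversed Eif2ak3 (0.072), Eif2c1 (0.31) and Eif3h (-0.013), and averaging all probes of a gene reversed Eif1ad (0.011). Reversed here means a changed sign with a call in either run. Of the 27, these had no call with loess: Eif1, Eif2b2, Eif2c1, Eif2s1, Eif3e, Eif3l, Eif3m, Eif4a2, Eif4a3, Eif4ebp2, Eif4ebp3, Eif4g1 and Eif4g2. Eif2ak3 with the processed signals and Eif1ad with its probes averaged did not pass (limma adjusted p = 0.202 and 0.834). The cause was not tested. Against 15 higher and 16 lower members, median centring gave 52 and 2, the processed signals 16 and 7, normexp with offset 0 gave 10 and 10 and the deposited log2 values 12 and 10. Without the replicate block, with the channels fitted apart, 10 members were higher and 7 lower, and 14 calls were lost: Eif1a, Eif1ad, Eif1ax, Eif2ak3, Eif2b1, Eif3g, Eif3h, Eif3i, Eif3k, Eif4a1, Eif4b, Eif4g3, Eif5 and Eif6. With an intensity trend 19 were higher and 17 lower. Calls lost with their direction kept numbered 11 with offset 0, 10 with the processed signals and 9 with the deposited log2 values. At least 1.5-fold higher on both arrays were 35 members with median centring, 2 with the processed signals and 2 with offset 0. When either replicate was left out, 2 members were past 1.5-fold on the 1 array that remained. They were Eif2ak1 and Eif3d on replicate 1, and Eif2ak1 and Eif5a2 on replicate 2. At least 1.5-fold lower on both arrays was 1 member with both channels above background, which drops Eif4e3, and 1 with the probes of each gene averaged. The members' median was 0.72 with median centring, 0.077 with the processed signals, -0.026 with offset 0, -0.033 without background subtraction, -0.035 with the deposited log2 values, and between -0.015 and 0.0017 when 1 array was left out.

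Elongation factors numbered 17 higher and 1 lower with median centring. The mTORC1 and eIF4F regulators, 4 higher and 9 lower, became 22 and 1 with median centring and 9 and 2 with the processed signals. They were 2 higher and 4 lower without the replicate block, 7 higher with an intensity trend, and 2 higher with offset 0, without background subtraction, with the deposited log2 values and with no filter on background. The eIF2 phosphorylation and ATF4 list gave 24 higher and 4 lower with median centring. Counts of calls need both arrays and have no value with 1 left out. Members dim in a channel, such as Eif4e3, are limited to bounds.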
